A study of Homo sapiens with 4 samples.

Results

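Macroautophagy, hereafter autophagy, is the route by which a cell wraps part of its cytoplasm in a double membrane, the autophagosome, and delivers it to the lysosome for breakdown. A kinase complex around ULK1 starts the process, a lipid kinase complex around PIK3C3 marks the site, lipid transport and scramblase proteins extend the membrane, and ubiquitin-like conjugation systems attach proteins of the ATG8 family to it. Receptors that bind both ATG8 proteins and ubiquitin then bring in the cargo. In senescent cells the pathway is known as a source of recycled amino acids and as a route by which damaged organelles and nuclear material are cleared.

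The genes described here are 38 genes of this core machinery, taken by their names from the 58219 genes of the total RNA table. The rule goes by name and uses no measured value, and all 38 were measured well enough to be tested. The cells were WI-38, normal fibroblasts of human embryonic lung that stop dividing for good after irradiation. The first group received siG3BP1, an siRNA against exon 4 of G3BP1, whose product is an RNA-binding protein that nucleates stress granules. The other group received a scrambled siRNA (siCTL). Cells of both groups were then irradiated with 10 Gy and harvested at day 8, so the comparison is between senescent cells with less G3BP1 RNA and senescent cells of the control, for 1 siRNA sequence and 1 cell strain. Each group had 2 libraries, called A and B, and nothing in the labels says that these came from separate cultures, so p-values measure only the spread between these libraries, which may be technical.

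The unit throughout is the normalized read, that is, the reads of a gene divided by a size factor of its library. Fold changes are siG3BP1 over siCTL on the log2(value + 0.5) scale, on which changes of genes with few reads come out too small. They were tested with limma over 13422 genes with Benjamini-Hochberg adjustment, and a gene is called higher or lower where its adjusted p is under 0.05. G3BP1 had 201 and 271 normalized reads in siG3BP1 A and B, against 2675 and 2522 in siCTL A and B, a mean of 9.09% of that in siCTL (log2 fold change -3.47, standard error (SE) 0.34, adjusted p = 9.10e-21). The reads counted in genes ranged over the 4 libraries between 16944404 and 22745000. All 7 fibroblast markers were expressed, with sums between 662995 and 673809 normalized reads in siG3BP1 and between 452396 and 619477 in siCTL. Of 5 markers each of other cell types, the endothelial list, carried by TEK, summed to between 1007 and 1471 in siG3BP1 and between 3018 and 4480 in siCTL. The epithelial list, carried by KRT19, summed to between 133 and 327 in siG3BP1 and between 36.7 and 134 in siCTL. The immune list, which was led by LYZ, summed to between 92.4 and 105 in siG3BP1 and between 69.9 and 79.8 in siCTL, and the muscle list to between 16.5 and 68.8 in siG3BP1 and between 21.6 and 68.0 in siCTL. KRT5, KRT14, CDH5, MYOD1 and MYF5 were at 0 reads in every library. The part of these markers in the results was not tested. These are bulk samples, in which fewer cells of a type and less RNA per cell cannot be told apart.

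After G3BP1 depletion the autophagy genes moved in both directions. Of the 38 genes, 15 were lower in siG3BP1 than in siCTL, 11 were higher, and for the other 12 the test was not passed. The same test called 30.5% of all tested genes lower and 25.9% higher, so changes of this kind were common in these libraries. The lower genes included RB1CC1, TAX1BP1, ATG4C, ATG14, ATG5 and ATG12, with log2 fold changes between -1.89 and -0.88 over the 15 genes. The higher genes included MAP1LC3A, ATG4D, ATG2A and ATG4B, with log2 fold changes between 0.81 and 1.29 over the 11 genes. SEs lay between 0.33 and 0.42. The siG3BP1 and siCTL libraries did not overlap for 18 genes lower and 17 genes higher in siG3BP1, against 40.5% and 42.8% of all tested genes. The median log2 fold change was -0.28 over the 38 genes and 0.04 over all tested genes.

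The split followed base composition. The 15 lower genes had an exonic GC content, the share of G and C in all annotated exons, between 34.4% and 45.9%, and the 11 higher genes between 49.0% and 65.2%. Of the 17 autophagy genes at or under 45.9% GC, 15 were lower and 0 higher, where 65.8% of all 5625 tested genes in that range were lower and 1.87% higher. Of the 16 at or over 49.0% GC, 11 were higher and 0 lower, where 51.7% of the 6202 tested genes in that range were higher and 1.77% lower. After the course of the values along GC content had been taken out of each library, 0 of the 38 genes passed (limma, smallest adjusted p = 0.0702), against 0.00749% of all genes passing lower (1 gene, G3BP1 itself, with a corrected log2 fold change of -2.32 and adjusted p = 0.0305) and 0 passing higher. At an unadjusted p under 0.05 the corrected fit had 15 of the 38 genes and 28.3% of all tested genes. Limma estimated 4.21 prior degrees of freedom in the corrected fit and infinite ones without correction. The 2 fits therefore weigh spread differently, and a gene that did not pass after correction is not shown to be unchanged. With the letter A or B as a replicate block as well, 7 of the 38 genes were lower and 6 higher, against 14.4% and 14.7% of all tested genes. What part of the changes goes with GC content rather than with G3BP1 depletion was not tested. The calls also rest on both siCTL libraries, and without either of them the spread is estimated from the siG3BP1 libraries alone. Without siCTL A, and likewise without siCTL B, the calls of the 38 genes did not hold. Over all tested genes 0.797% were then lower and 0.149% higher without siCTL A, and 0.0894% lower and 0.0373% higher without siCTL B. Without siG3BP1 A, 14 of the 38 genes were lower and 8 higher, against 23.9% and 18.8% of all tested genes. Without siG3BP1 B, 18 were lower and 16 higher, against 37.6% and 34.1% of all tested genes. The median log2 fold change of the 38 genes was -0.20 without siCTL A and -0.35 without siCTL B, against -0.28 with all libraries. It was 0.01 without siG3BP1 A and -0.56 without siG3BP1 B.

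**Figure D1:**
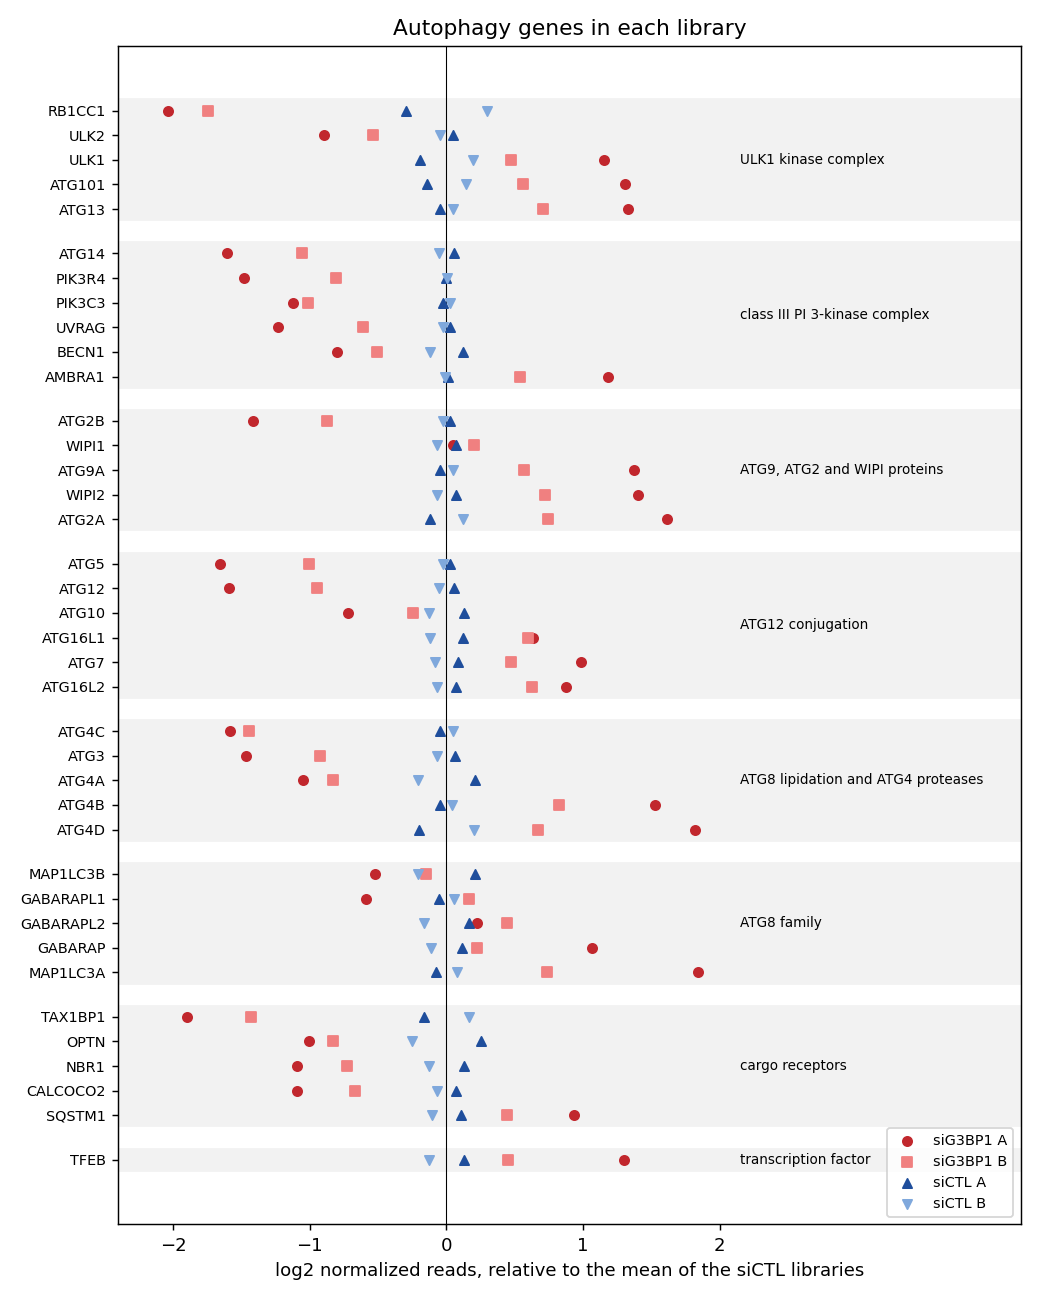
Level of each of the 38 autophagy genes in each library, as log2 normalized reads relative to the mean of the siCTL libraries (horizontal axis), grouped by role (rows); circles and squares are siG3BP1 A and B, triangles are siCTL A and B. The siG3BP1 and siCTL points overlap in rank for 3 genes (MAP1LC3B, GABARAPL1 and WIPI1), and in all 26 called genes siG3BP1 A lies further from siCTL than siG3BP1 B does.

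The ATG4 proteases show this split within one family. ATG4 enzymes trim ATG8 proteins so that they can be joined to lipid, and later cut them off the membrane again. Humans have 4 ATG4 genes with the same catalytic cysteine, and the stretches below are shown because they encode the region around that cysteine with different shares of G and C. Each is 87 bases of coding sequence on the plus strand of GRCh38 with introns left out, and the capitals mark the codon of the catalytic cysteine.
ATG4A: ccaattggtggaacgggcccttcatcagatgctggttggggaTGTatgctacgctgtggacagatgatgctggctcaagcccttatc
ATG4B: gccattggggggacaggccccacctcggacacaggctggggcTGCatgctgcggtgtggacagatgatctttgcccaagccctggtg
ATG4C: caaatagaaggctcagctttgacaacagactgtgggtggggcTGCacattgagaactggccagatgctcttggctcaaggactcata
ATG4D: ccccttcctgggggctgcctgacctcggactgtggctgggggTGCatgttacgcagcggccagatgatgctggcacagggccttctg
The ATG4A stretch lies within chrX:108128846-108131339 (codon 77, 54.0% GC), that of ATG4B within chr2:241651329-241653591 (codon 74, 65.5% GC), that of ATG4C at chr1:62816703-62816789 (codon 111, 50.6% GC) and that of ATG4D at chr19:10545025-10545111 (codon 144, 66.7% GC). Over all exons the GC content was 43.1% for ATG4A, 59.3% for ATG4B, 34.4% for ATG4C and 65.2% for ATG4D. ATG4C, the lowest in GC content of the 38 genes, had 25.3 and 27.9 normalized reads in siG3BP1 A and B, against 74.2 and 79.1 in siCTL A and B (log2 fold change -1.51, SE 0.41, adjusted p = 0.00141). ATG4A had 85.8 and 99.95 normalized reads in siG3BP1 A and B, against 206 and 154 in siCTL A and B (log2 fold change -0.94, SE 0.35, adjusted p = 0.0174). For both genes each siG3BP1 library stood below each siCTL library. ATG4B, the main protease of the family for LC3, had 1786 and 1097 normalized reads in siG3BP1 A and B, against 602 and 639.8 in siCTL A and B (log2 fold change 1.17, SE 0.34, adjusted p = 0.00233). ATG4D, the highest in GC content of the 38 genes, had 487 and 219.6 normalized reads in siG3BP1 A and B, against 119.7 and 158 in siCTL A and B (log2 fold change 1.25, SE 0.34, adjusted p = 0.00153). Both were higher in both siG3BP1 libraries, and siG3BP1 A lay above siG3BP1 B by more than the siCTL libraries differed. With GC correction the log2 fold changes came to -0.16 for ATG4A, 0.30 for ATG4B, -0.20 for ATG4C and 0.29 for ATG4D, none past the threshold. ATG4A (adjusted p = 0.0543) and ATG4D (adjusted p = 0.0824, both limma) also did not pass without siG3BP1 A.

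ATG3, the E2-like enzyme that hands ATG8 proteins to phosphatidylethanolamine, was lower. It had 139 and 202 normalized reads in siG3BP1 A and B, against 402 and 366 in siCTL A and B (log2 fold change -1.20, SE 0.34, adjusted p = 0.00214), with no overlap between groups. Its value after correction depends on which sequence defines its GC content. All annotated exons of ATG3 together have 36.2% GC and give a corrected log2 fold change of 0.10, whereas its canonical transcript has 48.5% GC and gives -1.16, neither of them past the threshold.

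In the ULK1 kinase complex, which receives signals from mTORC1 and AMPK and starts autophagosome formation, the scaffold fell and 3 other subunits rose. Over all tested genes 30.5% were lower and 25.9% higher. RB1CC1 (FIP200), the scaffold on which the complex assembles, lies at chr8:52622456-52745843 of GRCh38 and showed the largest fall of the 38 genes. It had 126 and 156 normalized reads in siG3BP1 A and B, against 425 and 641 in siCTL A and B (log2 fold change -1.89, SE 0.34, adjusted p = 3.59e-06), and the higher siG3BP1 library stood well under the lower siCTL library. ATG13, the adaptor that links the kinase to RB1CC1, had 3692 and 2406 normalized reads in siG3BP1 A and B, against 1425 and 1522 in siCTL A and B (log2 fold change 1.02, SE 0.33, adjusted p = 0.00716). ATG101, the partner that stabilizes ATG13, had 1394 and 831 normalized reads in siG3BP1 A and B, against 509 and 622 in siCTL A and B (log2 fold change 0.93, SE 0.34, adjusted p = 0.0136). ULK1 itself, the kinase, had 1428 and 888 normalized reads in siG3BP1 A and B, against 559.6 and 735 in siCTL A and B (log2 fold change 0.81, SE 0.34, adjusted p = 0.0315). In all 3 the lower siG3BP1 library was above the higher siCTL library. The call of ULK1 did not hold with TMM scaling of the libraries (adjusted p = 0.0537) or without the mean-variance trend (adjusted p = 0.0662). It was also lost when genes with a mean of at least 1 were tested (adjusted p = 0.0538, all limma). The related kinase ULK2 had 112 and 143 normalized reads in siG3BP1 A and B, against 216 and 202 in siCTL A and B and did not pass (log2 fold change -0.72, SE 0.35, adjusted p = 0.0640). The kinases differ in GC content, with 63.6% in ULK1 and 47.1% in ULK2, and GC correction gave log2 fold changes of -0.12 for ULK1 and -0.60 for ULK2. ATG13, at 49.0% GC the lowest of the 11 higher genes, had a corrected value of 0.90 (SE 0.25, adjusted p = 0.0900) from all exons and of 0.53 (adjusted p = 0.140) from the canonical transcript, and RB1CC1 had -0.64 (adjusted p = 0.136, both limma). ATG101 (adjusted p = 0.0604) and ULK1 (adjusted p = 0.124, both limma) did not pass without siG3BP1 A.

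Most genes of the class III phosphatidylinositol 3-kinase complex were lower, 4 of 6. Over all tested genes 30.5% were lower, and 65.8% of those at or under 45.9% GC, where these 4 lie. This complex makes phosphatidylinositol 3-phosphate, the lipid that recruits later factors to the forming membrane. Its catalytic subunit PIK3C3 (VPS34) had 296 and 319 normalized reads in siG3BP1 A and B, against 632 and 656 in siCTL A and B (log2 fold change -1.07, SE 0.34, adjusted p = 0.00532). Its regulatory subunit PIK3R4 (VPS15) had 185 and 295 normalized reads in siG3BP1 A and B, against 516 and 518 in siCTL A and B (log2 fold change -1.15, SE 0.34, adjusted p = 0.00301). The siCTL libraries nearly coincided for both genes, and the siG3BP1 libraries lay below them. ATG14, the subunit that sends the complex to autophagosome formation, had 97.9 and 143 normalized reads in siG3BP1 A and B, against 311 and 288 in siCTL A and B (log2 fold change -1.33, SE 0.34, adjusted p = 0.000782). UVRAG, which takes the place of ATG14 in the endosomal form of the complex, had 121 and 186 normalized reads in siG3BP1 A and B, against 289.8 and 280.1 in siCTL A and B (log2 fold change -0.92, SE 0.34, adjusted p = 0.0163). Neither overlapped between groups. BECN1 (Beclin 1), common to both forms, had 600.3 and 733 normalized reads in siG3BP1 A and B, against 1136 and 960.3 in siCTL A and B and did not pass (log2 fold change -0.65, SE 0.34, adjusted p = 0.0828). AMBRA1, a BECN1-binding regulator, had 1183 and 760.3 normalized reads in siG3BP1 A and B, against 525 and 519 in siCTL A and B (log2 fold change 0.86, SE 0.34, adjusted p = 0.0227) and was the 1 gene of the 6 that was higher. At 51.4% its GC content was the highest of the group, the others lying between 37.7% (PIK3C3) and 46.3% (BECN1). GC correction left -0.70 for ATG14 (adjusted p = 0.0755), -0.59 for UVRAG (adjusted p = 0.103) and -0.41 for PIK3R4, and gave 0.19, of the opposite sign, for PIK3C3 (limma).

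The proteins that supply lipid to the growing membrane gave 3 higher genes, 1 lower gene and 1 that did not pass. Of all tested genes, 25.9% were higher and 30.5% lower. ATG2 proteins carry lipids between membranes, and their genes moved apart. ATG2A had 1434 and 784 normalized reads in siG3BP1 A and B, against 431 and 509 in siCTL A and B (log2 fold change 1.18, SE 0.34, adjusted p = 0.00227). ATG2B had 345 and 504 normalized reads in siG3BP1 A and B, against 940.4 and 908 in siCTL A and B (log2 fold change -1.15, SE 0.34, adjusted p = 0.00293). The groups did not overlap for either gene, and the paralogs differ in GC content, at 63.2% in ATG2A and 42.2% in ATG2B. ATG9A, the scramblase of the seed vesicles, had 2904 and 1659.9 normalized reads in siG3BP1 A and B, against 1083 and 1160.1 in siCTL A and B (log2 fold change 0.97, SE 0.34, adjusted p = 0.0103). WIPI2, which reads phosphatidylinositol 3-phosphate and brings in ATG16L1, had 4549 and 2849 normalized reads in siG3BP1 A and B, against 1810.5 and 1644 in siCTL A and B (log2 fold change 1.06, SE 0.33, adjusted p = 0.00512). Its paralog WIPI1 had 1786 and 1986 normalized reads in siG3BP1 A and B, against 1813 and 1644 in siCTL A and B, overlapping between groups (log2 fold change 0.13, SE 0.33, adjusted p = 0.758). With GC correction WIPI2 had 0.59 (adjusted p = 0.135, limma) and the others lay between -0.24 (ATG2B) and 0.25 (ATG2A).

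**Figure D2:**
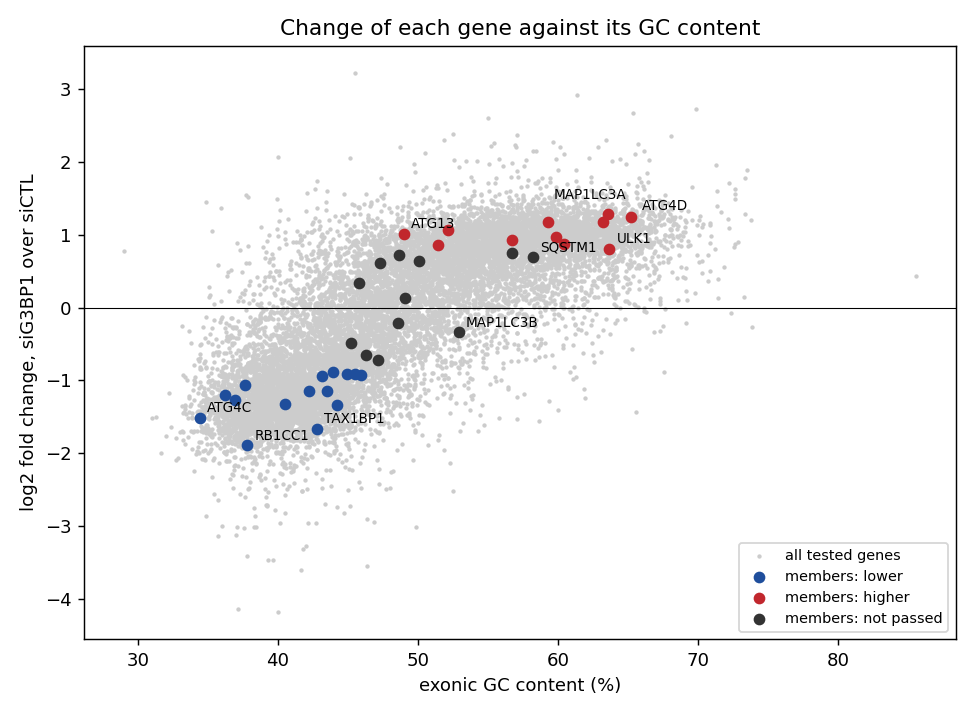
Log2 fold change (siG3BP1 over siCTL, vertical axis) against exonic GC content in percent (horizontal axis), for all tested genes with a GC value (gray) and the 38 autophagy genes (blue lower, red higher, black not passed). The autophagy genes lie along the course of all genes, the 15 lower ones between 34.4% and 45.9% GC and the 11 higher ones between 49.0% and 65.2% GC.

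In the ATG12 conjugation system, 2 of 6 genes were lower and 4 did not pass, where 30.5% of all tested genes were lower. The system joins ATG12 to ATG5 and binds ATG16L1, and the product directs the lipidation of ATG8 proteins. ATG5 had 57.2 and 90.1 normalized reads in siG3BP1 A and B, against 184 and 178 in siCTL A and B (log2 fold change -1.33, SE 0.36, adjusted p = 0.00119). ATG12 had 168 and 263 normalized reads in siG3BP1 A and B, against 525 and 488 in siCTL A and B (log2 fold change -1.27, SE 0.34, adjusted p = 0.00119). For both partners of the conjugate the siG3BP1 libraries lay under the siCTL libraries. ATG10, the E2-like enzyme of this system, had 42.9 and 59.8 normalized reads in siG3BP1 A and B, against 77.4 and 65.0 in siCTL A and B (log2 fold change -0.48, adjusted p = 0.278). ATG7, the E1-like enzyme shared with ATG8 lipidation, had 1253 and 878 normalized reads in siG3BP1 A and B, against 671 and 599 in siCTL A and B and lay just outside the threshold (log2 fold change 0.73, SE 0.34, adjusted p = 0.0536). ATG16L1, which anchors the conjugate to the membrane, had 782 and 761 normalized reads in siG3BP1 A and B, against 548 and 465 in siCTL A and B, with no overlap and siG3BP1 libraries close to each other (log2 fold change 0.61, SE 0.34, adjusted p = 0.105). ATG16L2, its paralog and the lowest of the 38 genes per kilobase of all annotated exons, had 60.5 and 50.8 normalized reads in siG3BP1 A and B, against 34.3 and 31.3 in siCTL A and B (log2 fold change 0.75, SE 0.42, adjusted p = 0.108). With GC correction ATG12 came to 0.02, ATG5 to -0.23, ATG16L1 to 0.71 (adjusted p = 0.0742) and ATG7 to 0.65 (adjusted p = 0.134, both limma). From the canonical transcript ATG16L1 had 0.41 and ATG7 0.51.

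The ATG8 family, whose lipidated members coat the autophagosome and bind the receptors, had 1 higher gene of 5, where 25.9% of all tested genes were higher. MAP1LC3A (LC3A), at chr20:34546854-34560345 of GRCh38, had 869.7 and 404 normalized reads in siG3BP1 A and B, against 229 and 256 in siCTL A and B (log2 fold change 1.29, SE 0.34, adjusted p = 0.000940), the largest rise of the 38 genes. The siG3BP1 A library was well above siG3BP1 B, and both were above siCTL. MAP1LC3B (LC3B), the member most used as an autophagosome marker, lies at chr16:87383995-87404779 of GRCh38 and had 1871 and 2425 normalized reads in siG3BP1 A and B, against 3119 and 2326 in siCTL A and B (log2 fold change -0.34, SE 0.33, adjusted p = 0.380), with siG3BP1 B between the siCTL libraries. GABARAP had 239 and 133 normalized reads in siG3BP1 A and B, against 123 and 105 in siCTL A and B (log2 fold change 0.64, SE 0.35, adjusted p = 0.101). GABARAPL1 had 1549 and 2623 normalized reads in siG3BP1 A and B, against 2247 and 2426 in siCTL A and B (log2 fold change -0.21, SE 0.33, adjusted p = 0.593), the siG3BP1 libraries lying on either side of siCTL. GABARAPL2 had 1131 and 1318 normalized reads in siG3BP1 A and B, against 1089 and 863 in siCTL A and B (log2 fold change 0.33, SE 0.34, adjusted p = 0.391). Reads of MAP1LC3B are uncertain where they match its near-identical copy MAP1LC3B2, which was counted at 4.40 and 7.37 normalized reads in siG3BP1 A and B, against 9.58 and 11.0 in siCTL A and B.

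For MAP1LC3B the sign after GC correction depends on the exons counted. All its annotated exons have 52.9% GC and give a corrected log2 fold change of -0.88 (SE 0.26, adjusted p = 0.0981, limma). Its canonical transcript has 42.4% GC and gives 0.57. No direction can be given for this gene from these libraries. GABARAPL2 was positive under both definitions, at 0.70 and 1.06 (adjusted p = 0.0742 and 0.0667, limma), and MAP1LC3A at 0.36 and 0.34, none of them past the threshold.

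Per kilobase of exonic length, MAP1LC3A held a larger and MAP1LC3B a smaller share of the summed level of the ATG8 family in both siG3BP1 libraries than in either siCTL library. MAP1LC3A held 37.6% in siG3BP1 A and 17.7% in siG3BP1 B, against 11.1% in siCTL A and 13.7% in siCTL B. MAP1LC3B held 18.5% and 24.3% in siG3BP1 A and B, against 34.5% and 28.4% in siCTL A and B. The share of GABARAPL1 was 19.0% and 32.6% in siG3BP1 A and B, against 30.8% and 36.9% in siCTL A and B, and the groups overlapped. GABARAPL2 held between 17.7% and 22.1% and GABARAP between 3.33% and 6.09% in the 4 libraries. The largest share was that of MAP1LC3A in siG3BP1 A, of GABARAPL1 in siG3BP1 B and siCTL B, and of MAP1LC3B in siCTL A. By canonical transcript length MAP1LC3A held 22.9% and 9.53% in siG3BP1 A and B, against 5.80% and 7.36% in siCTL A and B, so its share depends on the length used while the order of the groups does not. The largest share in siG3BP1 A was then that of GABARAPL2, at 29.5%, while the other libraries kept the same leading gene. At 63.5% MAP1LC3A has the highest exonic GC content of the family, the others lying between 45.8% and 52.9%. The shares were not corrected for GC content, so that of MAP1LC3B gives no direction for the gene either.

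Of the cargo receptors, 4 of 5 genes were lower, against 30.5% of all tested genes. All 4 lie at or under 45.9% GC, where 65.8% of all tested genes were lower. TAX1BP1, a receptor of ubiquitinated aggregates at chr7:27739331-27844564 of GRCh38, had 224 and 311 normalized reads in siG3BP1 A and B, against 746 and 939 in siCTL A and B (log2 fold change -1.66, SE 0.34, adjusted p = 3.11e-05). OPTN (optineurin), a receptor of mitochondria and bacteria, had 1260.0 and 1427 normalized reads in siG3BP1 A and B, against 3010.3 and 2129.6 in siCTL A and B (log2 fold change -0.92, SE 0.33, adjusted p = 0.0148). Both were lower in each siG3BP1 library than in either siCTL library. NBR1, a receptor of aggregates and peroxisomes, had 1426 and 1841 normalized reads in siG3BP1 A and B, against 3320.0 and 2786 in siCTL A and B (log2 fold change -0.91, SE 0.33, adjusted p = 0.0155). CALCOCO2 (NDP52), a receptor of bacteria and mitochondria, had 648 and 869 normalized reads in siG3BP1 A and B, against 1446 and 1319 in siCTL A and B (log2 fold change -0.88, SE 0.34, adjusted p = 0.0196). Again the groups did not overlap. SQSTM1 (p62), the receptor that gathers ubiquitinated proteins, lies at chr5:179806398-179838078 of GRCh38 and was the highest of the 38 genes per length, with a mean over the 4 libraries of 2612 normalized reads per kilobase of exons. It had 28508 and 20310.5 normalized reads in siG3BP1 A and B, against 16024 and 13875 in siCTL A and B and lay just outside the threshold (log2 fold change 0.69, SE 0.33, adjusted p = 0.0586). TAX1BP1 had the smallest adjusted p of the 38 genes with GC correction (-0.84, SE 0.18, adjusted p = 0.0702, limma), but its canonical transcript, at 37.8% GC against 42.8% for all exons, gave -0.39. The other corrected values were -0.50 for OPTN, -0.38 for NBR1, -0.20 for CALCOCO2 and -0.15 for SQSTM1.

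SQSTM1 took a larger share of the summed level of the receptors, per kilobase of exons, in siG3BP1. It held 88.0% and 80.9% in siG3BP1 A and B, against 63.2% and 64.6% in siCTL A and B. TAX1BP1 held 0.569% and 1.02% in siG3BP1 A and B, against 2.42% and 3.60% in siCTL A and B. The shares of NBR1 were 3.95% and 6.58% in siG3BP1 A and B, against 11.7% and 11.6% in siCTL A and B, and OPTN and CALCOCO2 were likewise lower. At 58.2% SQSTM1 has the highest GC content of the 5 receptors, the others lying between 42.8% and 45.5%.

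**Figure D3:**
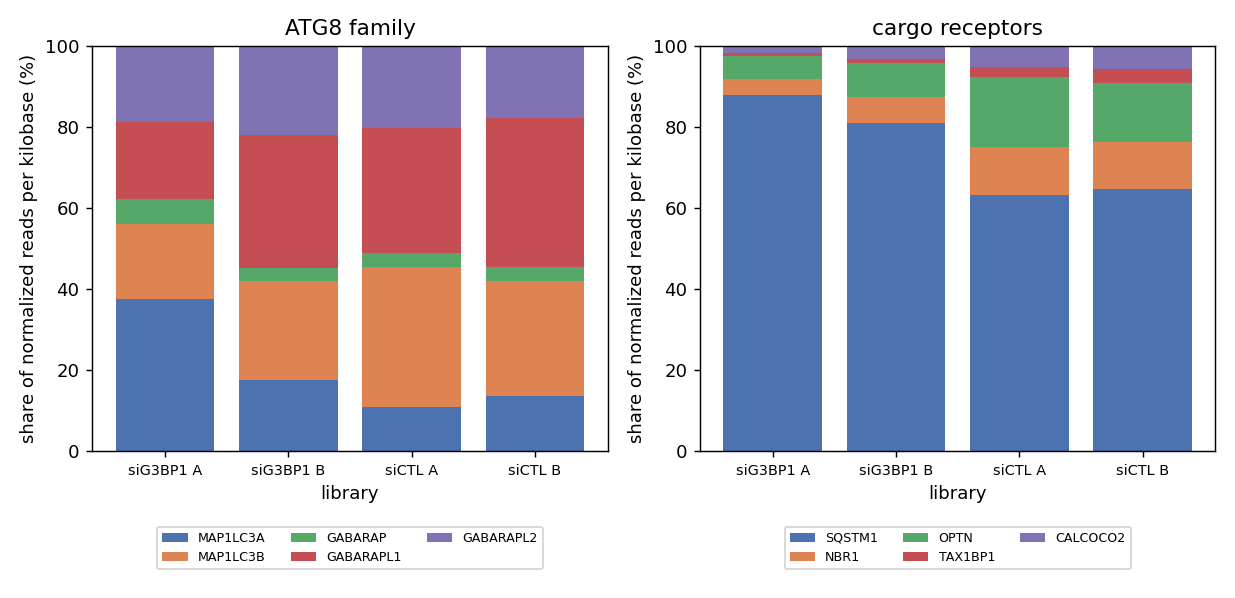
Share of each gene in the summed normalized reads per kilobase of exons (vertical axis, percent) of the ATG8 family (left) and the cargo receptors (right), in siG3BP1 A, siG3BP1 B, siCTL A and siCTL B (bars, no error bars since each bar is 1 library). MAP1LC3A holds 37.6% and 17.7% of its family in siG3BP1 A and B, against 11.1% and 13.7% in siCTL A and B, and SQSTM1 holds 88.0% and 80.9% of the receptors, against 63.2% and 64.6%.

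TFEB, the transcription factor that turns on lysosome and autophagy genes, was higher, though from few reads. It had 124 and 68.8 normalized reads in siG3BP1 A and B, against 55.1 and 46.0 in siCTL A and B (log2 fold change 0.87, SE 0.38, adjusted p = 0.0409), and the siG3BP1 libraries lay above the siCTL libraries. The call did not hold without siG3BP1 A (log2 fold change 0.45), on the recovered reads in DESeq2 (adjusted p = 0.0925) or with GC correction, which gave -0.02. Nor did it hold with TMM scaling of the libraries (adjusted p = 0.0613) or without the mean-variance trend (adjusted p = 0.0535). With the other filters on low values the adjusted p lay between 0.0532 and 0.0987 (all limma). TFEB and its relatives bind the E-box CACGTG, in a preferred form TCACGTG, and these letters were looked for on both strands of the RefSeq promoters (GRCh38.p14, 250 bases before to 50 after each start) of the 34 member genes that have one. Of the 44 promoters, 2 hold CACGTG (4.55%, against 7.26% of all 35116 promoters) and the same 2 hold the longer TCACGTG (4.55%, against 3.71%). They belong to ATG3 and ATG14, both lower in siG3BP1, and are shown because no other promoter of these genes has a match. That of ATG3 has a further match just after the start, which is not shown. Capitals mark the 7-base motif, which in ATG14 lies on the other strand and so appears as its complement.
ATG3: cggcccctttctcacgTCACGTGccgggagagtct
ATG14: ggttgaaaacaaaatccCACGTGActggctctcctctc
The ATG3 stretch is chr3:112561963-112561997 and that of ATG14 chr14:55411831-55411868, both on the minus strand. A match in letters says nothing of binding.

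**Figure D4:**
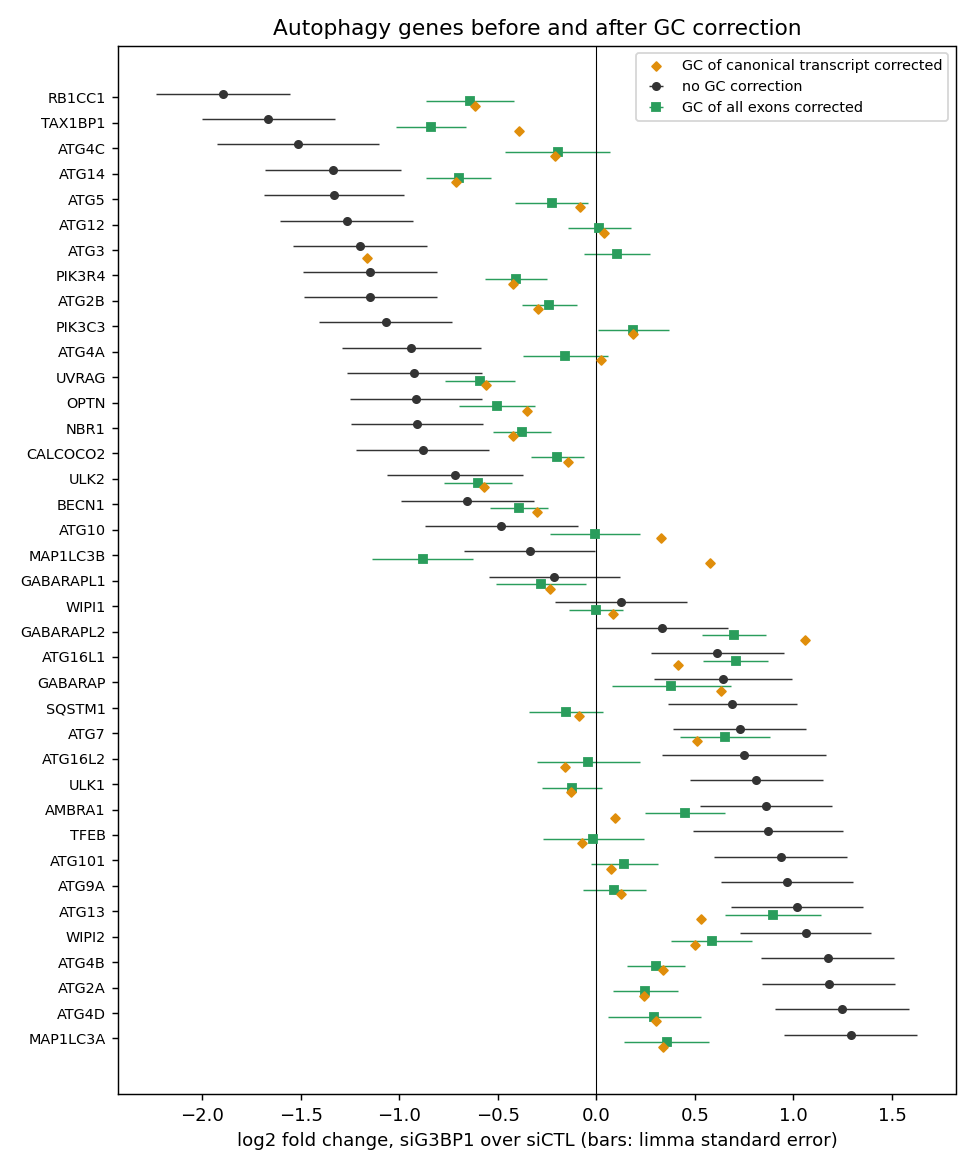
Log2 fold change of the 38 autophagy genes (siG3BP1 over siCTL, horizontal axis) without GC correction (black circles), corrected for the GC content of all exons (green squares) and corrected for that of the canonical transcript (orange diamonds); bars are limma standard errors, n = 2 libraries per group. The corrected values of all exons lie between -0.88 (MAP1LC3B) and 0.90 (ATG13), and 0 of the 38 genes pass.

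Over the 38 genes, the Spearman rho of log2 fold change with exonic GC content was 0.92, against 0.80 over 13350 tested genes, given as a description across genes that share libraries and depth. With exonic length it was -0.16 over the 38 genes and -0.32 over all. After a correction for length in place of GC content, 10 of the 38 genes were lower and 14 higher, against 15 and 11 without it, and 23.5% of all genes were lower and 24.1% higher. MAP1LC3A (log2 fold change 0.75, adjusted p = 0.0710), PIK3C3, ATG2B, UVRAG, NBR1 and CALCOCO2 then did not pass, while ATG7, ATG16L1, ATG16L2 and SQSTM1 passed as higher (limma). The difference between siG3BP1 A and siG3BP1 B also ran with GC content over the 38 genes (rho 0.76), while that between siCTL A and siCTL B did not in that direction (rho -0.13). All 26 called genes lay further from siCTL in siG3BP1 A than in siG3BP1 B. With GC correction the median size of the change was 0.30 on the log2 scale, against 0.93 without it, and the median over the 38 genes was -0.03. The sign was the same with correction for 12 of the 15 lower genes and 9 of the 11 higher genes, and rho with GC content was still 0.39. The cause of the GC trend was not tested.

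Further genes of the pathway also moved in both directions. Of 88 genes in 5 lists, 79 were tested, with 27 lower, 28 higher and 24 not past the threshold, and a median log2 fold change of 0.16. Over all tested genes 30.5% were lower and 25.9% higher, against which the counts of each list are to be read. With GC correction 0 of the 79 passed (limma), 27 of them at an unadjusted p under 0.05, against 28.3% of all genes. Among 15 further genes of initiation and elongation, 7 were lower and 3 higher. TBK1, the kinase of several receptors, had 73.7 and 81.9 normalized reads in siG3BP1 A and B, against 204 and 191 in siCTL A and B (log2 fold change -1.34, adjusted p = 0.000992), and TMEM41B, a scramblase of the endoplasmic reticulum, had a log2 fold change of -1.18 (adjusted p = 0.00244). TECPR1, a tether of autophagosomes and lysosomes, had 1565 and 926 normalized reads in siG3BP1 A and B, against 467 and 504 in siCTL A and B (log2 fold change 1.31, adjusted p = 0.000765), and the WIPI relative WDR45 had a log2 fold change of 1.16 (adjusted p = 0.00259). Among 14 genes of fusion with the lysosome, 2 were lower and 5 higher. STX17, the SNARE of autophagosomes, had 46.2 and 63.1 normalized reads in siG3BP1 A and B, against 141 and 161 in siCTL A and B (log2 fold change -1.47, adjusted p = 0.000502), and VPS41, of the HOPS tether, a log2 fold change of -1.65 (adjusted p = 3.63e-05). The higher genes included PLEKHM1, an adaptor of that tether (log2 fold change 1.24, adjusted p = 0.00139), and VPS18, of the HOPS tether itself (log2 fold change 0.87, adjusted p = 0.0205). Subunits of one tether were found on both sides.

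Among 15 further receptors of selective autophagy, 4 were lower and 8 higher. SEC62, a receptor of the endoplasmic reticulum, had a log2 fold change of -1.62 (adjusted p = 4.50e-05). CALCOCO1, a paralog of CALCOCO2, had one of 1.28 (adjusted p = 0.000884), where CALCOCO2 itself was lower, and the GC content was 51.7% in CALCOCO1 and 43.9% in CALCOCO2. PINK1, the kinase that marks damaged mitochondria, had 1.22 (adjusted p = 0.00151), and TOLLIP, a ubiquitin-binding adaptor, 1.17 (adjusted p = 0.00241, log2 fold changes throughout). Of 30 genes of mTORC1, AMPK and nutrient sensing, 12 were lower and 11 higher. The 4 with the smallest p were all lower. SESN3, a sestrin gene of low level, had 19.8 and 42.6 normalized reads in siG3BP1 A and B, against 82.2 and 180.2 in siCTL A and B (log2 fold change -2.05, adjusted p = 1.19e-05). The others were FNIP1 (-1.62, adjusted p = 4.86e-05), RICTOR of mTORC2 (-1.54, adjusted p = 0.000109) and the AMPK subunit PRKAA1 (-1.43, adjusted p = 0.000270, all limma). The relatives of TFEB moved apart. MITF had 213 and 351 normalized reads in siG3BP1 A and B, against 768 and 812 in siCTL A and B (log2 fold change -1.53, adjusted p = 0.000114). TFE3 had 7096 and 4038 normalized reads in siG3BP1 A and B, against 2431 and 2353 in siCTL A and B (log2 fold change 1.16, adjusted p = 0.00229). Their GC contents were 40.6% in MITF and 57.9% in TFE3. FOXO3, a forkhead activator of autophagy genes, was lower (log2 fold change -0.99, adjusted p = 0.00949), and with GC correction its value of -1.15 was no smaller, though it did not pass (adjusted p = 0.0628, limma). ZKSCAN3, a repressor of autophagy genes, had a log2 fold change of -0.78 and did not pass (adjusted p = 0.0506). The same dependence on both siCTL libraries held, with 1 lower and 0 higher of the 79 genes passing without siCTL A and 0 passing without siCTL B.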

How the data were processed

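Total RNA of irradiated WI-38 cells was sequenced from 2 libraries each of siG3BP1 and siCTL. According to the methods of the study and the submitters' processing notes, the authors trimmed reads with Trimmomatic 0.35, aligned them with STAR to GRCh38 with a Gencode annotation and normalized gene read counts with DESeq2 1.22.1. The methods also name RSEM, for computing expression of genes and transcripts. The notes also name TopHat2 2.0.10 and mouse builds without a role. The deposited values are a signal, in which the authors had divided the reads of a gene by the size factor of its library. Undoing that division gave whole reads for all values at a tolerance of 1e-06 reads. Columns of the authors' own comparison (fold changes and p-values) were not used.

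Genes with a mean of at least 10 over the 4 libraries (13422 of 58219) were tested with limma 3.58.1 in R 4.3.3, two-sided, on log2(value + 0.5) with a mean-variance trend and Benjamini-Hochberg adjustment at 0.05. Limma estimated infinite prior degrees of freedom here, so SEs follow the trend rather than each gene. With GC correction it estimated 4.21, so SEs there depend more on each gene. Reads counted in genes were 17169469 in siG3BP1 A, 19233994 in siG3BP1 B, 16944404 in siCTL A and 22745000 in siCTL B. Where a count is 0, up to 3 reads remain possible, which covers counting error only. For the GC correction, the difference between a library and the mean of each gene was fitted by loess (span 0.3) against GC content and the fit subtracted, with GC content computed from a later Gencode release of GRCh38 than the authors used, for 99.5% of tested genes. Other pseudocounts, filters, scalings, corrections, edgeR 4.0.16, DESeq2 1.42.0 on the recovered reads, a replicate block and each library left out were tried. GC content of the canonical transcript, edgeR with GC offsets, GC correction with a library left out and shares by canonical transcript length were chosen after seeing the data. On simulated data of this comparison over 13422 genes, limma recovered 22 of 100 genes changed by 1 and 91 of 100 changed by 2 on the log2 scale, and called 8 unchanged genes. Only these genes were changed, with a dispersion common to all genes and no GC trend. In the real libraries 30.5% of genes were called lower and 25.9% higher, so these rates do not carry over to them. The members and lists were chosen with earlier results of these data known. All members are named; of each further list, the 4 genes with the smallest p are named. Sequences came from RefSeq (promoters) and the Gencode transcripts of GRCh38. Some markers of other cell types are not reported here.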

Additional observations from a re-analysis of the deposited data

How the results depend on the processing

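With other pseudocounts, filters and scalings, with a length correction, without the trend, in edgeR and in DESeq2, between 10 and 16 of the 38 genes were lower and between 9 and 14 higher. Of all tested genes, between 3140 and 4334 were lower and between 2959 and 3727 higher under these settings. The number tested lay between 10620 and 27536, depending on the filter. With GC correction, with that on the canonical transcript (chosen after seeing the data) and in edgeR with GC offsets (likewise), 0 were lower and 0 higher, and 0 of the further genes passed in either direction. At an unadjusted p under 0.05 there were 15, 13 and 15 of the 38 genes. The rank correlation with GC content was then 0.39, 0.48 and 0.40. With GC correction of all exons the log2 fold change turned sign for 5 of the 26 called genes, to 0.016 for ATG12, 0.10 for ATG3, 0.19 for PIK3C3, -0.016 for TFEB and -0.12 for ULK1, and for 3 of the other 12 (SQSTM1, ATG16L2 and WIPI1). Among the further genes it turned for 6 called ones, to 0.068 for TMEM41B, -0.0088 for VPS18, 0.26 for SH3GLB1, 0.25 for BNIP3L, 0.23 for PRKAA2 and -0.022 for VPS16, and for 8 others. On the canonical transcript it turned for 5 of the 26, to 0.040 for ATG12, 0.024 for ATG4A, 0.19 for PIK3C3, -0.072 for TFEB and -0.13 for ULK1, and for 4 of the other 12, to 0.57 for MAP1LC3B, 0.33 for ATG10, -0.16 for ATG16L2 and -0.086 for SQSTM1. The cause was not tested.

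The letters A and B were not taken as pairs, since the labels do not say what they mark. The study describes pairing of treatments with controls in general, without naming these libraries. Deviations of the A libraries from their group means correlated at 0.30 across genes, and at 0.48 with GC correction. With the letter as a replicate block, 12 of the 38 genes were lower and 6 higher. Of the further genes 22 were lower and 18 higher, and of all genes 27.3% were lower and 17.7% higher. ULK1, ATG101, AMBRA1, ATG9A, TFEB, OPTN, NBR1 and CALCOCO2 then did not pass. With GC correction and the block, 7 were lower and 6 higher, and 9 of the further genes were lower and 14 higher, against 14.4% and 14.7% of all genes. On the canonical transcript with the block, 6 were lower and 7 higher, and 8 of the further genes were lower and 16 higher, against 14.5% and 14.2% of all genes. Of the genes called without correction, RB1CC1, ATG14 and UVRAG stayed lower and ATG13 and WIPI2 higher under both definitions with the block. TAX1BP1 and OPTN stayed lower and AMBRA1 higher with all exons only, and ATG3 and NBR1 stayed lower on the canonical transcript only. Of the genes not called before, GABARAPL2 (adjusted p = 0.000562 and 2.94e-08), ATG7 and ATG16L1 passed as higher and ULK2 as lower under both (limma). GABARAP passed as higher on the canonical transcript only. MAP1LC3B passed as lower with all exons (adjusted p = 1.67e-05) and as higher on the canonical transcript (adjusted p = 0.00290, both limma).

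Leaving out 1 library at a time, with and without GC correction, gave between 0 and 18 lower and between 0 and 16 higher of the 38 genes, and between 0 and 33 lower and between 0 and 36 higher of the further genes. The rank correlation ranged between 0.32 and 0.92, and the log2 fold change of G3BP1 between -3.69 and -2.27. With GC correction as well, the median log2 fold change of the 38 genes was 0.04 and -0.13 without siCTL A or B. It was -0.05 and -0.04 without siG3BP1 A or B. The rank correlation was then 0.35 and 0.40 without siCTL A or B, and 0.32 and 0.37 without siG3BP1 A or B. The log2 fold change of G3BP1, at -2.36 and -2.27 without siG3BP1 A or B and at -2.27 and -2.36 without siCTL A or B, passed without siG3BP1 B only (limma). Leaving out siG3BP1 B was also the only omission under which any of the 38 or further genes passed with GC correction, in both directions. The upper ends of the ranges of calls came from the same omission without correction. A group left with 1 library was assumed to vary like the other. At 2 libraries per group, changes of 1 on the log2 scale were mostly missed in simulated data, which had few changed genes and no GC trend, unlike these libraries.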
